A study of Gallus gallus with 26 samples.

Results

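Late-stage ovarian tumours of chickens were compared with normal chicken ovary in messenger RNA, gene by gene. The comparison used 5 late tumour libraries, with code numbers 3, 7, 23, 25 and 31, and 4 normal ovary libraries, with code numbers 3, 4, 6 and 7. The 4 early tumour libraries of the same study (code numbers 9, 11, 12 and 21) entered the fit only to help estimate the spread. The labels give organism, tissue and stage, and no strain, age, treatment or day is stated for any group. All 25079 genes of the deposited table were considered, and 16130 of them had enough reads to be tested. Another 8949 genes were not tested, of which 3288 were at 0 in all 9 libraries.

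Laying hens develop ovarian carcinoma spontaneously, and the hen is used as a model of the human disease for that reason. A hen's ovary is a mixed tissue. It holds oocytes within follicles of granulosa and theca cells, a connective-tissue stroma rich in collagen, blood vessels, blood cells, a covering surface epithelium, and bands of smooth muscle that carry the follicles and act when an egg is released. Carcinoma of the ovary can replace this tissue with epithelial cells, and it often carries its own stroma and vessels. In whole-tissue RNA, fewer cells of a type and less RNA per cell of that type cannot be told apart.

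The labelled tissue was checked against defining markers, as summed TPM, a transcript level scaled for gene length and library total. Oocyte markers summed to between 389.9 and 643 TPM in the normal libraries and to between 466 and 988 TPM in the late libraries, so egg-cell transcripts were read in every tumour library. Granulosa markers summed to 333 to 841 TPM in normal and 443 to 834 TPM in late libraries, and the theca sums were 118 to 184 and 90.9 to 266 TPM. The epithelial sum of EPCAM, CDH1, KRT7 and KRT18 was 719 to 1240 TPM in normal and 1065 to 1653 TPM in late libraries. Most of it was EPCAM (means 748 and 1193 TPM), while the means of KRT7 and KRT18 were lower in late libraries and CDH1 was low in both groups (2.01 and 2.49 TPM). Markers of gut were nearly absent, with VIL1, CDX1 and CDX2 under 1 TPM in all 9 libraries, and the liver sum was at most 9.70 TPM. The oviduct sum was higher, at 7.08 to 36.8 TPM in normal and 3.95 to 67.7 TPM in late libraries. Its largest part was AVD, which encodes avidin (means 17.7 and 26.2 TPM). The oviduct protein ovalbumin (OVAL) was at most 1.04 TPM in a normal library and at most 0.751 TPM in a late library.

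Libraries held between 16273731 and 20118629 estimated counts, and each of the 9 held between 15174 and 15730 genes with at least 10 counts. The most abundant transcripts of both groups were those of protein synthesis, led by RPL37A in normal (mean 9668 TPM) and by the elongation factor EEF1A1 in late libraries (mean 7641 TPM). On the first principal component of the 9 libraries, which took 48.2% of the variance, normal libraries 3, 4 and 6 stood at 52.3, 74.6 and 37.3, and normal library 7 stood at -17. Late library 25 stood at 18.1, on the side of the 3 normal libraries, and late library 3 stood farthest out at -94. The other late libraries were at -10.9 (late 7), -17.5 (late 23) and -42.9 (late 31). Normal 7 therefore lay among the late libraries, and late 25 lay between late 7 and normal 6. For some lists, counts of members are also given with 1 of the 9 libraries left out of the edgeR fit. In 46 of the 50 gene lists with a tested member, the larger count of members at an unadjusted p under 0.05 moved by over 1.5 times in at least 1 of these 9 fits. Such counts therefore depend on single libraries, also in lists for which no left-out count is given. The labels state no batch, hen or sequencing day, and whether the libraries of 1 group stem from different birds is not stated. All p-values therefore refer to variation among these libraries, which may be technical.

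With edgeR's quasi-likelihood test, 0 of 16130 genes passed a Benjamini-Hochberg adjusted p of 0.05 (0% called), and the smallest adjusted p was 0.244. At an unadjusted p under 0.05 the same fit held 1211 genes higher in late tumour, which is 7.51% of the genes tested, and 1682 genes lower, which is 10.4%. DESeq2 on the same counts called 27 genes higher (0.174% of the 15491 genes to which it gave an adjusted p) and 99 lower (0.639%). The limma voom method with quality weights, which gives deviating libraries less weight, called 355 genes higher (2.2%) and 540 lower (3.35%). Of the 126 genes called by DESeq2, 95 were also called by voom. Without normal library 7, edgeR called 113 of 16360 genes (0.691%), of which 53 were also among the 126 of DESeq2.

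The size of the differences was uneven between the directions. Among tested genes, 1071 had a log2 fold change of -1 or less and 206 had one of 1 or more. At a log2 fold change of 2 in size the numbers were 136 lower and 12 higher. The median over all tested genes was 0.01, with 8209 genes (50.9%) above 0. Late and normal values did not overlap for 200 genes higher in late tumour (1.24%) and for 221 genes lower (1.37%). This was counted on normalised CPM, which are counts scaled to the library total after its adjustment by a normalisation factor (TMM).

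**Figure D1:**
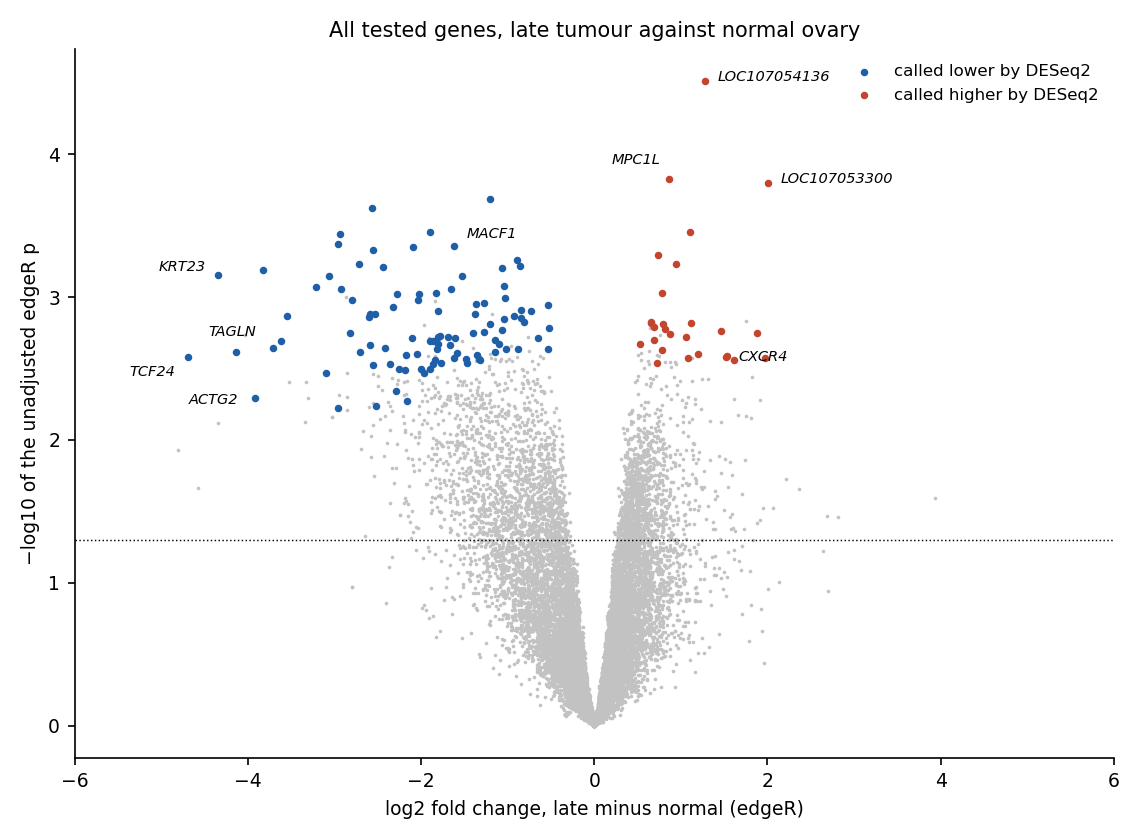
Each point is a tested gene, with the edgeR log2 fold change of late tumour over normal ovary on the x axis and −log10 of the unadjusted edgeR p on the y axis; the dotted line marks p = 0.05, coloured genes were called by DESeq2, and 4 genes beyond 6 in size are outside the plotted range. The 99 genes called lower reach log2 fold changes below -4, and the 27 called higher end at 2.01.

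Smooth muscle genes stood lower in late tumour, and they had the most negative median of the 50 gene lists examined. Of 23 tested genes of smooth muscle contraction, 22 stood lower, 20 of them at an unadjusted p under 0.05, and none stood higher at that p. The 20 were 87% of the list, against 10.4% of all genes. The median log2 fold change of the list was -1.84, against 0.01 for all tested genes, and 21 members had a log2 fold change of -1 or less. DESeq2 called 5 of the 23 lower and voom called 3. Late and normal values overlapped for all 23. Values of single libraries are given below in the order normal 3, 4, 6 and 7 and late 3, 7, 23, 25 and 31.

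TAGLN encodes transgelin, an actin-binding protein of contractile smooth muscle. Its level was 2717, 3157, 622 and 150.3 TPM in the normal libraries and 25.5, 178, 86.9, 336 and 125 TPM in the late libraries. Normal 3 and 4 were far above every late library, normal 6 was above them, and normal 7 lay within the late range. The log2 fold change was -3.71 ± 1.00 (SE), and DESeq2 called the gene lower with an adjusted p of 0.0354, while adjusted p-values over all alternatives ran from 0.00104 to 0.611. MYL9, the regulatory light chain of smooth muscle myosin, was at 1371, 1600, 512 and 259 TPM in normal and at 179, 265, 251, 379 and 213 TPM in late libraries. The order of the libraries was the same at both ends, with normal 4 highest and late 3 lowest, and late 25 was the highest of the tumours.

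LMOD1, or leiomodin, which starts actin filaments in smooth muscle, was at 19.1, 25.1, 8.25 and 3.26 TPM in normal and at 1.63, 3.01, 2.91, 3.83 and 2.87 TPM in late libraries (log2 fold change -2.53 ± 0.63). SMTN, or smoothelin, a cytoskeletal protein of contractile cells, was at 22.8, 43.0, 13.8 and 7.84 TPM in normal and at 4.87, 6.93, 5.33, 9.22 and 6.59 TPM in late libraries (-2.02 ± 0.48). For both genes a single late library, 25, exceeded the lowest normal library. The gamma actin ACTG2 averaged 1481 ± 1409 TPM in normal (SD, n = 4, as for all normal means below) and 111 ± 113 TPM in late libraries (SD, n = 5, as for all late means), a spread about as large as the mean in both groups, and DESeq2 called it lower. DES, the intermediate filament desmin, averaged 459.9 ± 393 and 76.3 ± 65.5 TPM and was called by neither DESeq2 nor voom. MYH11, the smooth muscle myosin heavy chain, was at 144, 179, 79.3 and 27.4 TPM in normal and at 2.99, 32.1, 29.2, 36.2 and 34.1 TPM in late libraries, at an unadjusted edgeR p of 0.015.

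CACNA1C and PRKG1 act on contraction and were outside the list. CACNA1C was among the 10 lowest fold changes of DESeq2's calls without overlap, and PRKG1 was chosen after its values were seen. CACNA1C, the pore-forming subunit of the L-type calcium channel that triggers contraction, was at 2.13, 2.11, 1.75 and 0.853 TPM in normal and at 0.172, 0.695, 0.457, 0.512 and 0.632 TPM in late libraries. Its groups did not overlap, the log2 fold change was -1.83 ± 0.44, and DESeq2 called it lower. PRKG1, the cyclic GMP-dependent kinase that relaxes smooth muscle, was at 32.8, 28.8, 23.3 and 16 TPM in normal and at 10.5, 15.0, 12.4, 14.2 and 15.7 TPM in late libraries (-0.89 ± 0.20), and DESeq2 called it lower. The gap between normal 7 and late 31 for PRKG1 was small, and the groups overlapped on normalised CPM. ACTA1, an actin that skeletal muscle uses and smooth muscle also reads, was at 580.1, 735, 131 and 27.0 TPM in normal and at 10.1, 38.9, 17.0, 61.1 and 41.3 TPM in late libraries, in the same pattern as TAGLN.

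**Figure D2:**
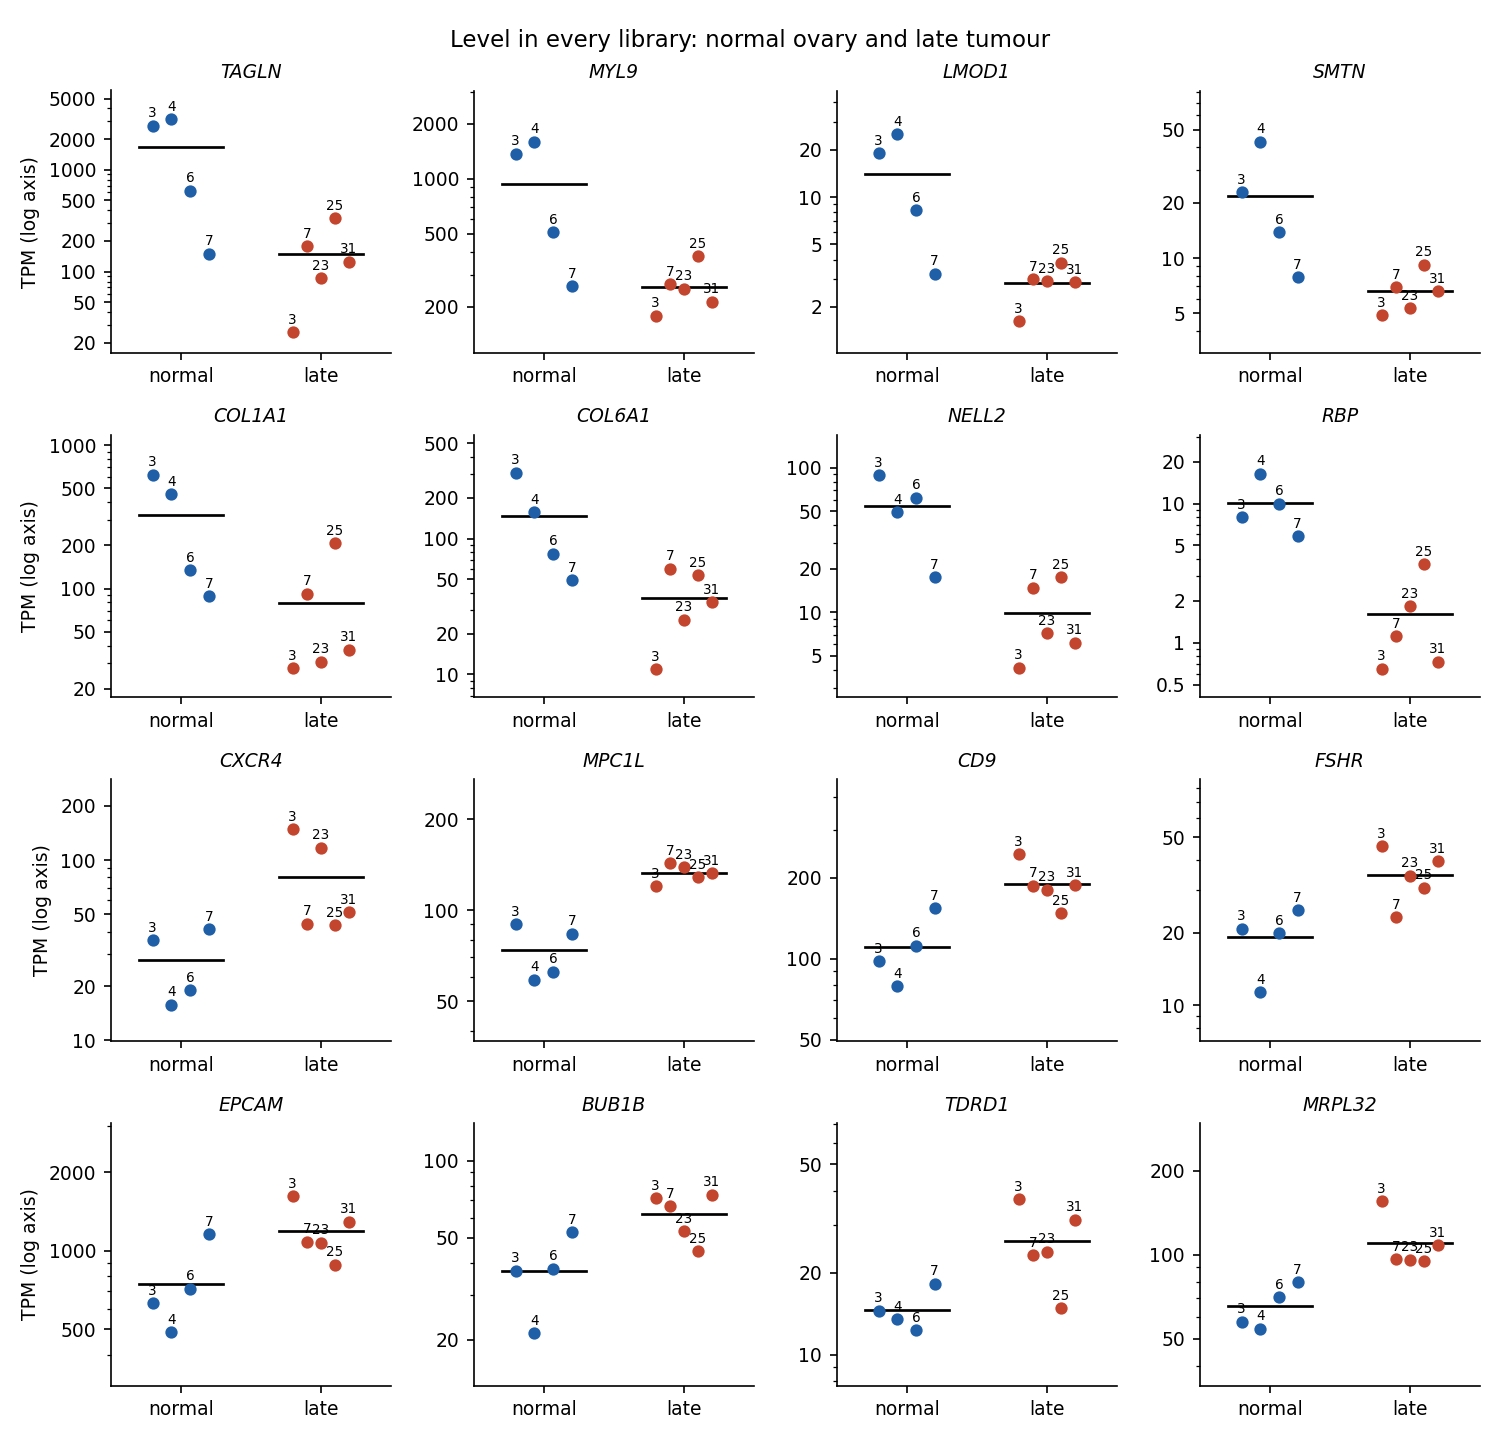
TPM on a log axis for 16 genes in the 4 normal (blue) and 5 late (red) libraries, with the code number above each point and the group mean as a black bar. Normal 7 lies beside the late libraries for TAGLN (150.3 TPM against late values from 25.5 to 336), and late 25 lies among the normal libraries for TDRD1 (14.8 TPM).

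Leaving out single libraries changed how many smooth muscle genes passed and left the direction of the median as it was. Without normal 4, 11 of 23 members were lower at an unadjusted p under 0.05 and the median was -1.31. Without late 3 the median was -1.60, with 17 members, and without normal 7 it was -2.12, with 20 members. The list's mean level per library was taken on a log2 scale centred over all 13 libraries, early tumours included. It was 1.77, 2.10, 0.60 and -0.66 in normal and -2.20, -0.31, -0.71, 0.23 and -0.68 in late libraries. Normal 7 had a lower smooth muscle level than late 7 and late 25.

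Genes of pericytes, the contractile cells around small vessels, stood lower too. Of 8 tested members of that list, 4 were lower at an unadjusted p under 0.05 (50%, against 10.4% of all genes). The median was -1.05. ABCC9 and KCNJ8 form the ATP-sensitive potassium channel of vessel walls. ABCC9 was at 21.9, 21.8, 11.5 and 8.75 TPM in normal and at 3.59, 8.54, 6.28, 6.46 and 3.92 TPM in late libraries, with no overlap. KCNJ8 was at 25.3, 29.5, 8.44 and 5.26 TPM in normal and at 1.76, 5.19, 4.69, 7.80 and 4.45 TPM in late libraries, where late 25 reached into the normal range. The pericyte gene RGS5 was at 5.29 TPM in late 3 and at 107 TPM in late 7, inside the normal range of 81.2 to 123 TPM.

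Connective-tissue matrix genes were lower in late tumour as a group, by less than smooth muscle. All 29 tested matrix glycoproteins and proteoglycans had a log2 fold change below 0, with a median of -1.07, and 14 were lower at an unadjusted p under 0.05. Among 16 fibrillar collagens and the enzymes that assemble them, 15 stood lower and 10 did so at that p (median -0.87). Basement membrane genes gave 7 of 17 lower and 1 higher at that p (median -0.53). The shares lower at that p were 48.3%, 62.5% and 41.2% in this order, against 10.4% of all genes. DESeq2 and voom called no member of these 3 lists, and edgeR called none. Without normal 3 the members lower at that p numbered 4 glycoproteins (median -0.76), 3 collagens (median -0.66) and 1 basement membrane gene (median -0.40). Without late 3 they numbered 11, 6 and 2, and without normal 7 they numbered 18, 14 and 9. In each of these fits the 3 medians were below 0.

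COL1A1, a chain of collagen I, was at 623, 456, 134 and 88.6 TPM in normal and at 27.9, 92.1, 30.9, 207 and 37.4 TPM in late libraries. Late 25 exceeded normal 6 and 7, and late 7 exceeded normal 7, so the groups overlapped. The log2 fold change was -2.28 ± 0.77 at an unadjusted edgeR p of 0.0106. Its partner chain COL1A2 averaged 316 ± 242 TPM in normal and 99.4 ± 58.3 TPM in late libraries. COL6A1 and COL6A2, chains of the beaded-filament collagen VI, had log2 fold changes of -2.09 ± 0.66 and -2.20 ± 0.71. COL6A1 was at 305, 157, 77.4 and 49.2 TPM in normal and at 10.9, 60.0, 25.3, 53.6 and 33.9 TPM in late libraries, where late 7 and 25 passed normal 7.

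EMILIN1, a glycoprotein of elastic fibres, had a log2 fold change of -2.02 ± 0.63, with 43.1 ± 25.3 TPM in normal and 14.1 ± 8.34 TPM in late libraries. LOXL1, which crosslinks elastin, averaged 27.3 ± 15.9 and 9.74 ± 5.22 TPM. SERPINH1, the collagen chaperone, had a smaller difference of -0.73 ± 0.25. HSPG2, or perlecan, the large proteoglycan of basement membranes, had -1.61 ± 0.55, whereas the laminin chain LAMC1 had -0.30 ± 0.14. FMOD, or fibromodulin, which binds collagen fibrils, was at 10.9, 5.15, 5.41 and 4.93 TPM in normal and at 2.88, 4.86, 4.45, 3.28 and 3.36 TPM in late libraries, with the groups apart by a narrow margin.

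DESeq2 called matrix genes that were in none of these lists. COL7A1, the anchoring-fibril collagen of epithelial basement membranes, was at 1.21, 1.43, 1.95 and 0.511 TPM in normal and at 0.137, 0.447, 0.410, 0.424 and 0.300 TPM in late libraries. These groups did not overlap, the log2 fold change was -2.09 ± 0.46, and DESeq2's adjusted p was 0.00684 within a range of 1.87e-05 to 0.611 over the alternatives. CPXM1, a secreted carboxypeptidase-like protein, was at 3.88, 6.64, 2.64 and 1.98 TPM in normal and at 0.265, 1.04, 0.613, 1.45 and 0.352 TPM in late libraries, without overlap. COL16A1, a collagen associated with fibrils, averaged 14.1 ± 5.97 and 3.35 ± 2.18 TPM and was chosen after its values were seen, as were OLFML3 (37.6 ± 18.0 and 12.1 ± 5.32 TPM) and the collagen-uptake receptor MRC2 (22.8 ± 6.16 and 13.8 ± 2.48 TPM), which DESeq2 and voom also called lower.

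Genes of stromal fibroblasts outside the collagens gave 3 of 18 lower at an unadjusted p under 0.05 (1 without normal 4). The 3 were 16.7% of the list, against 10.4% of all genes. The list's median was -0.83 (-0.52 without normal 4). PRRX1, a transcription factor of mesenchyme, was at 13, 18.9, 7.02 and 5.10 TPM in normal and at 5.74, 6.0, 3.96, 5.50 and 4.86 TPM in late libraries. PDGFRA, a receptor of fibroblasts, averaged 22.7 ± 4.57 TPM in normal and 17.4 ± 9.40 TPM in late libraries (unadjusted edgeR p = 0.442), and late 3 (3.19 TPM) and late 31 (13.7 TPM) were the libraries below the normal range. The proteoglycan DCN was at 35.2 TPM in late 3 and between 163 and 276 TPM in the other late libraries, against 238 to 702 TPM in normal libraries. Matrix proteases and their inhibitors gave 2 of 15 lower at that p, near the 10.4% of all genes. Those 2 were ADAMTS1 and TIMP2, at -1.79 ± 0.61 and -1.59 ± 0.55.

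Vessel-lining genes were lower on balance and did not move as one. Of 26 tested endothelial genes, 19 stood lower, 11 of them at an unadjusted p under 0.05, and 1 was higher at that p (median -0.67). The 11 were 42.3% of the list, against 10.4% of all genes. PECAM1, an adhesion protein of endothelium, was at 19.4, 24.6, 15.4 and 14.8 TPM in normal and at 2.13, 12.3, 8.48, 9.61 and 9.27 TPM in late libraries, without overlap. ROBO4, a guidance receptor of vessels, was also separate, at 1.65, 1.68, 0.480 and 0.574 TPM in normal and 0.192, 0.365, 0.266, 0.474 and 0.250 TPM in late libraries. The growth-factor receptor KDR averaged 2.23 ± 0.405 and 1.79 ± 0.667 TPM (unadjusted edgeR p = 0.34), and EGFL7 averaged 100.1 ± 18.0 and 111 ± 20.9 TPM.

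EMCN, the mucin endomucin of veins and capillaries, went the other way. It was at 134, 87.7, 102 and 139.9 TPM in normal and at 137, 166, 139, 117 and 175 TPM in late libraries (log2 fold change 0.32 ± 0.14), and voom called it higher. The endothelial median was -0.44 without late 3, with 6 genes lower at an unadjusted p under 0.05, and -0.56 without normal 4, with 4 genes. Late 3 had the lowest summed level of PECAM1, CDH5 and KDR, 12.2 TPM, against 32.5 to 47.8 TPM in the normal libraries.

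**Figure D3:**
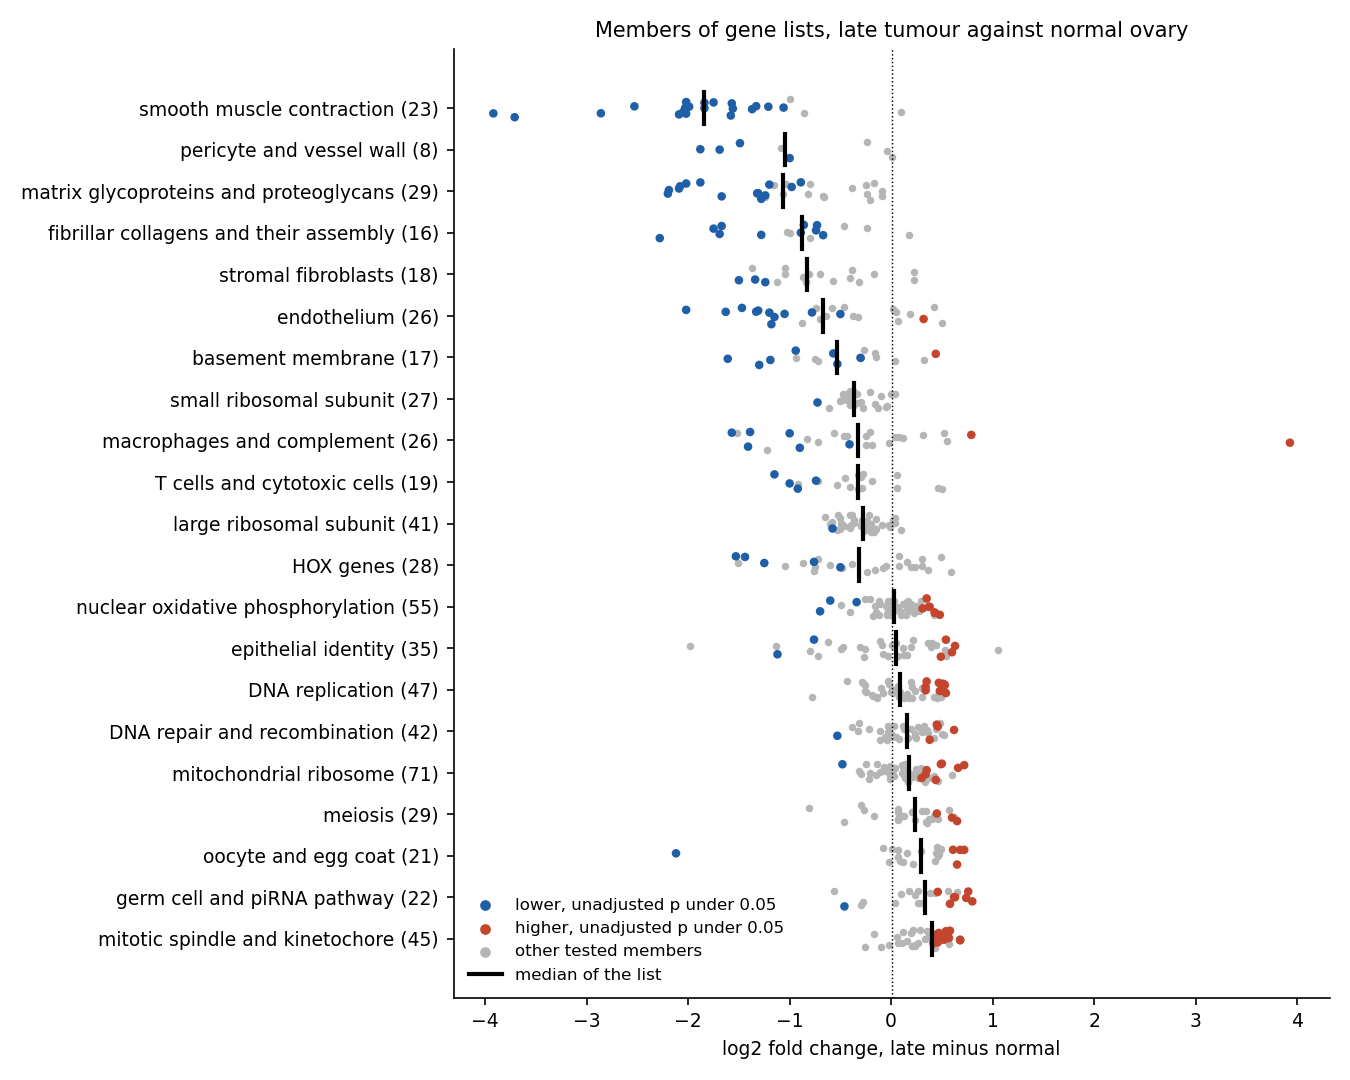
Each dot is a tested member of a gene list (number tested in brackets), placed by its log2 fold change of late tumour over normal ovary; blue and red dots have an unadjusted edgeR p under 0.05, black bars are list medians and the dotted line is the median of all tested genes (0.01). Medians run from -1.84 for smooth muscle contraction to 0.40 for the mitotic spindle and kinetochore.

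The genes that stood higher in late tumour differed by less. CXCR4, the receptor of the chemokine CXCL12 and a receptor that guides blood, germ and tumour cells, had the largest fold change among the protein-coding genes that DESeq2 called higher without overlap. It was at 36.1, 15.8, 19.0 and 41.4 TPM in normal and at 148, 44.3, 117, 43.7 and 51.4 TPM in late libraries. The groups did not overlap, but late 7 and 25 were only just above normal 7. The log2 fold change was 1.52 ± 0.42 (1.21 without late 3 and 1.79 without normal 7), and DESeq2 called it with an adjusted p of 0.0369 within a range of 0.0022 to 0.611. Its ligand CXCL12 averaged 132 ± 12.0 TPM in normal and 158 ± 71.1 TPM in late libraries (unadjusted edgeR p = 0.567).

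MPC1L, which RefSeq lists with the synonym MPC1, belongs to the carrier that brings pyruvate into mitochondria. It was at 90.0, 59.0, 62.7 and 83.7 TPM in normal and at 120.2, 143, 139, 129 and 133 TPM in late libraries. Every late library was above every normal one, and the late values were close together (133 ± 8.79 TPM, SD, n = 5). The log2 fold change was 0.86 ± 0.17, between 0.82 and 0.95 without normal 4, normal 7 or late 3, and both DESeq2 and voom called it. Unadjusted edgeR p was 0.000149.

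Among other higher genes without overlap, CTAGE1 (RefSeq synonym OTOR) was at 13.9, 12.3, 18.5 and 22.1 TPM in normal and at 45.3, 35.3, 29.6, 26.5 and 48.5 TPM in late libraries. CRHBP, which binds and holds the stress hormone CRH, was at 56.4, 42.2, 39.0 and 66.7 TPM in normal and at 143, 84.7, 95.0, 64.0 and 90.5 TPM in late libraries, where late 25 fell just below normal 7 in TPM although normalised CPM did not overlap. EGF, the epidermal growth factor, was low in both groups, at 0.766, 0.480, 0.556 and 0.965 TPM in normal and 1.68, 1.51, 1.33, 1.05 and 1.84 TPM in late libraries, with a log2 fold change of 1.06 ± 0.28. DESeq2 and voom called all of these 3 genes higher.

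Further higher genes were picked from DESeq2's calls after their values were seen. CD9, a tetraspanin of egg and epithelial membranes, averaged 111 ± 31.8 TPM in normal and 189.6 ± 35.3 TPM in late libraries (0.69 ± 0.18). RRAD, a small GTPase that restrains calcium channels, averaged 19.2 ± 5.46 and 37.8 ± 12.8 TPM (0.94 ± 0.21). PDE12, a mitochondrial nuclease that trims poly(A) tails, averaged 25.8 ± 4.95 and 49.9 ± 20 TPM (0.82 ± 0.21). BLEC1, a lectin-like receptor encoded in the chicken MHC region, was at 6.21, 4.16, 4.12 and 14.8 TPM in normal and at 33.1, 13.3, 15.3, 15.8 and 36.7 TPM in late libraries. COPRS, a partner of an arginine methyltransferase on histones, averaged 8.62 ± 4.99 and 20.4 ± 6.24 TPM, and normal 7 was apart from the other normal libraries at 16 TPM.

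Long noncoding RNA genes (lncRNA, transcripts with no known protein) made up 8 of the 27 genes called higher and 1 of the 99 called lower by DESeq2. LOC107053300 had the highest log2 fold change of the genes that DESeq2 called higher without overlap, 2.01 ± 0.39, at 0.200, 0.333, 0.177 and 0.319 TPM in normal and 0.867, 0.887, 1.52, 1.10 and 0.975 TPM in late libraries. LOC107054136 had the smallest unadjusted edgeR p of all genes, 3.09e-05. It was at 0.799, 0.485, 0.409 and 0.761 TPM in normal and at 1.97, 1.41, 1.29, 0.975 and 1.85 TPM in late libraries. Both were separate between the groups at low levels, as were LOC121110796, LOC112533519 and LOC107054117 on normalised CPM.

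Of 1739 tested lncRNA genes, 67.7% stood higher in late tumour, against 49% of 14300 protein-coding genes. Medians were 0.25 and -0.01, and the lncRNA median was 0.20 without late 3 and 0.34 without normal 7. At an unadjusted p under 0.05, 163 lncRNA genes were higher and 56 lower, against 1044 and 1611 protein-coding genes. In each quintile of genes by mean TPM the lncRNA median was above that of the protein-coding genes. All lncRNA genes together took 0.738% to 1.08% of the TPM of a normal library and 0.861% to 1.35% of that of a late library, so the shares overlapped. How overlapping and antisense transcripts were counted, and whether strand was used, is not stated in the labels, so reads of an lncRNA gene and of an overlapping gene cannot be told apart.

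**Figure D4:**
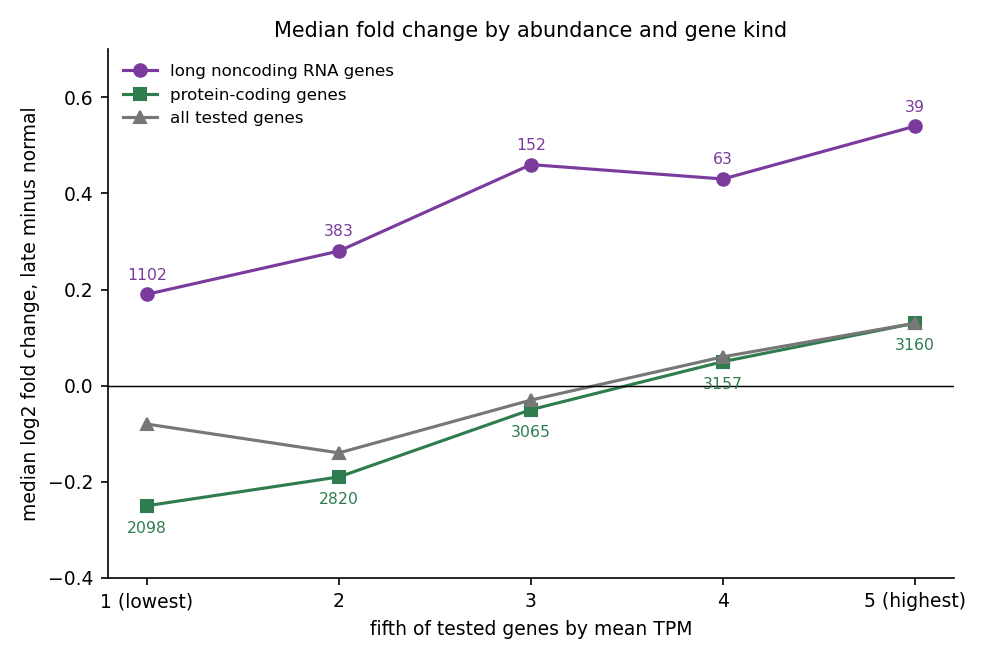
Median log2 fold change of late tumour over normal ovary for lncRNA, protein-coding and all tested genes in quintiles of mean TPM over the 9 libraries, with the number of genes beside each point. The lncRNA medians run from 0.19 to 0.54 and the protein-coding medians from -0.25 to 0.13.

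Protein-coding genes of low abundance stood lower and those of high abundance slightly higher. The protein-coding median was -0.25 in the lowest quintile (below 1.40 TPM), -0.19 in the next, and 0.13 in the highest quintile (above 49.6 TPM). In the lowest quintile 308 protein-coding genes were lower and 41 higher at an unadjusted p under 0.05. In the highest quintile 179 were lower and 466 higher. Among the low-abundance genes was MACF1, a very large linker of actin and microtubules, at 5.6, 3.45, 3.14 and 1.15 TPM in normal and 0.968, 1.34, 1.26, 1.43 and 1.32 TPM in late libraries. KMT2D, a histone H3 lysine methyltransferase, was at 2.92, 1.93, 2.34 and 1.14 TPM in normal and at 1.08, 1.12, 1.05, 1.24 and 1.18 TPM in late libraries. In both genes normal 7 lay inside the narrow late range.

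Germ-line and cell-division genes stood slightly higher in late tumour. Of 22 tested genes of germ cells and the piRNA pathway, which silences transposons in the germ line, 18 stood higher, 7 at an unadjusted p under 0.05, and 1 was lower at that p (median 0.33). Mitotic spindle and kinetochore genes gave 41 of 45 higher, 13 of them at that p and none lower (median 0.40). Meiosis genes gave 24 of 29 higher with 3 at that p (median 0.24), and oocyte and egg-coat genes gave 18 of 21 higher with 4 at that p (median 0.29). Background for these counts is the 7.51% of all genes that were higher at that p. DESeq2 called no member of these 4 lists. Without late 3 the oocyte list gave 11 of 21 higher, with 2 at that p and a median of 0.18, and the germ-cell list gave 3 members higher at that p, as it did without normal 4 and without normal 6. The meiosis list gave 0 to 5 members higher at that p when 1 library was left out, with 0 without normal 3, normal 4 or late 23.

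TDRD1, a Tudor-domain scaffold of the piRNA pathway, was at 14.5, 13.5, 12.3 and 18.2 TPM in normal and at 37.2, 23.2, 23.9, 14.8 and 31.3 TPM in late libraries (0.76 ± 0.23). Its late 25 value lay inside the normal range, and the other late libraries were above it. TDRD12, of the same family, was at 8.45, 4.06, 5.15 and 8.08 TPM in normal and at 13.2, 13.2, 12.1, 4.92 and 13.8 TPM in late libraries, again with late 25 alone in the normal range. DAZL, an RNA-binding protein of germ cells, averaged 131 ± 33.6 and 211 ± 90.9 TPM, with 362 TPM in late 3. Voom called these 3 genes higher, and HENMT1, which methylates the ends of piRNAs, was at 22.4 ± 3.24 and 35.6 ± 15.5 TPM without a call.

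The oocyte list was not uniform. BTG4, which clears maternal messenger RNA in the egg, was at 251, 238, 239 and 419.5 TPM in normal and at 788, 487, 355, 282 and 602 TPM in late libraries. ZP1, a protein of the egg coat, was lower instead, at 56.4, 21.6, 33.5 and 18.9 TPM in normal and at 1.34, 19.8, 4.37, 11.2 and 4.07 TPM in late libraries (-2.12 ± 0.70). The egg-coat gene ZP2 averaged 184 ± 66.0 and 199 ± 45.1 TPM and ZP3 averaged 40.9 ± 21.2 and 59.2 ± 25.7 TPM, neither at an unadjusted p under 0.05. The oocyte growth factors GDF9 (204 ± 58.4 and 306 ± 161 TPM) and BMP15 (66.0 ± 16.8 and 74.4 ± 33.7 TPM) were likewise within the spread of the libraries.

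BUB1B, a kinase of the spindle checkpoint that also works in oocyte meiosis, was at 37.2, 21.2, 37.9 and 52.6 TPM in normal and at 71.5, 66.4, 53.0, 44.3 and 73.7 TPM in late libraries (0.68 ± 0.24), and voom called it higher. NUSAP1, which bundles spindle microtubules, averaged 72.5 ± 9.05 and 121 ± 51.1 TPM. CDK1, the kinase that starts mitosis, was at 338, 307, 293 and 548 TPM in normal and at 919, 506, 396, 359 and 676 TPM in late libraries. Late 3 and late 31 were the 2 highest libraries for these 3 genes, and normal 7 was the highest normal library for BUB1B and CDK1. Without late 3 the mitotic median was 0.27 and 4 members were higher at an unadjusted p under 0.05. Without normal 4 it was 0.30 with 1 member, and without normal 7 it was 0.55 with 24 members. Oocytes and germ cells store transcripts of many of these genes, and the germ-cell sum of DAZL and DDX4 was 97.4 to 178 TPM in normal and 117 to 365 TPM in late libraries, with late 3 highest. Its part in the mitotic values was not tested.

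DNA replication genes gave 31 of 47 higher, with a small median of 0.09. At an unadjusted p under 0.05, 8 members were higher (17%, against 7.51% of all genes). Without normal 4 and without normal 6 none of them was higher at that p, and without normal 3 and without late 3 there was 1. RPA2, a subunit of the protein that coats single-stranded DNA, was at 155, 129, 154 and 260.3 TPM in normal and at 353, 256, 246, 187 and 259.7 TPM in late libraries, and normal 7 stood above 4 of the 5 late libraries. TYMS, which makes thymidylate, averaged 345 ± 88.4 and 518 ± 101 TPM. DNA repair genes gave 4 of 42 higher (9.52%, near the 7.51% of all genes) and 1 lower at that p (median 0.16). Those higher numbered 1 without normal 3 and 12 without normal 7. BRCA1 averaged 29.9 ± 8.43 and 42.0 ± 12.8 TPM (unadjusted edgeR p = 0.0559). FANCI, of the Fanconi repair pathway, was the member that stood lower, at 6.33 ± 1.82 and 4.57 ± 0.960 TPM.

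Of the follicle lists DESeq2 called 1 gene. FSHR, the receptor of follicle-stimulating hormone on granulosa cells, was at 20.8, 11.3, 19.9 and 24.8 TPM in normal and at 45.9, 23.2, 34.5, 30.8 and 39.8 TPM in late libraries. Late 7 lay below normal 7, and the other late libraries lay above all normal ones. The log2 fold change was 0.79 ± 0.20 (0.71 without late 3 and 0.94 without normal 7), and DESeq2 called it with an adjusted p of 0.0373 within a range of 0.00135 to 0.611. AMH, the hormone of small-follicle granulosa cells, averaged 145 ± 55.0 and 163 ± 18.6 TPM, and FOXL2, the granulosa transcription factor, 439 ± 153 and 396 ± 161 TPM. The granulosa list as a whole gave 2 of 20 higher and 1 lower at an unadjusted p under 0.05 (median 0.15). These were 10% and 5%, against 7.51% and 10.4% of all genes. Beside FSHR the higher one was INHBB, a subunit of activin and inhibin, at 0.406 ± 0.230 and 1.26 ± 1.18 TPM with 3.3 TPM in late 25. The lower one was AMHR2, the receptor of AMH (-0.71 ± 0.32).

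Among theca and steroid-synthesis genes, 1 of 22 was higher at that p (4.55%, under the 7.51% of all genes) and none was lower. It was FDX1, the ferredoxin that feeds electrons to steroid-making enzymes, at 48.9, 35.7, 41.5 and 55.2 TPM in normal and 93.9, 59.1, 61.7, 52.5 and 68.8 TPM in late libraries, where late 25 fell below normal 7 in TPM although normalised CPM did not overlap. The steroid enzymes CYP17A1 (93.6 ± 13.1 and 107 ± 54.3 TPM), CYP11A1 (42.3 ± 23.1 and 28.4 ± 13.2 TPM) and CYP19A1 (80.8 ± 31.2 and 116 ± 53.8 TPM) overlapped between the groups, as did the luteinizing hormone receptor LHCGR (20.5 ± 3.72 and 20.5 ± 6.17 TPM).

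Transcripts for proteins of the cytosolic ribosome and of the mitochondrial ribosome leaned in opposite directions by their medians. In the small cytosolic subunit 26 of 27 genes stood lower (median -0.37), and in the large one 37 of 41 (median -0.28). Only 1 member of each was lower at an unadjusted p under 0.05. These shares of 3.7% and 2.44% were under the 10.4% of all genes. In the large subunit that member was RPL6, with a log2 fold change of -0.58 ± 0.25. Small-subunit list means were -0.10, 0.54, 0.24 and -0.09 in normal and -0.91, -0.12, -0.02, 0.44 and -0.52 in late libraries, with late 3 and late 31 lowest and normal 4 highest. The median was -0.21 without late 3 and -0.18 without normal 4. Processed copies of ribosomal protein genes exist, and the treatment of reads matching several genes is not stated in the labels.

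Of 71 mitochondrial ribosomal genes, 54 stood higher, 8 at an unadjusted p under 0.05, and 1 was lower at that p (median 0.18). The 8 were 11.3% of the list, against 7.51% of all genes. Among the 3160 protein-coding genes of the highest quintile by TPM, 466 were higher at that p and the median was 0.13. The list therefore stood close to other abundant genes. MRPL32, of the large subunit, was at 57.5, 54.2, 70.3 and 79.7 TPM in normal and at 156, 96.6, 95.9, 94.9 and 108 TPM in late libraries. All late libraries were above all normal ones, the log2 fold change was 0.72 ± 0.20, and voom called it. MRPL42 averaged 305 ± 95.7 and 499 ± 82.2 TPM, and normal 7 was above late 25. MRPL23 was separate at 444 ± 112 and 643 ± 43.3 TPM. MRPL45 was the member lower at that p, at 59.3 ± 15.0 and 45.1 ± 9.76 TPM. No member was lower at that p without normal 3, late 7 or late 23. The list median stayed between 0.12 and 0.24 when any 1 library was left out, while the members higher at that p numbered 2 without normal 3, 3 without normal 4, 5 without late 3 or late 23 and 19 without normal 7.

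Respiratory-chain subunits of the nuclear genome were balanced, with 32 of 55 higher, 7 higher and 3 lower at an unadjusted p under 0.05 and a median of 0.03. The higher members numbered 0 without normal 3 and 13 without normal 7. NDUFV1, a core subunit of complex I, stood lower at 145, 151, 126 and 103 TPM in normal and 91.9, 86.6, 81.7, 125 and 79.3 TPM in late libraries, with late 25 apart, and voom called it lower. NDUFA4, another subunit of the chain, averaged 577 ± 76.3 and 739.7 ± 82.5 TPM (unadjusted edgeR p = 0.0463). Mitochondrial carriers other than MPC1L gave no DESeq2 call. Genes of the mitochondrial genome itself were not analysed here.

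**Figure D5:**
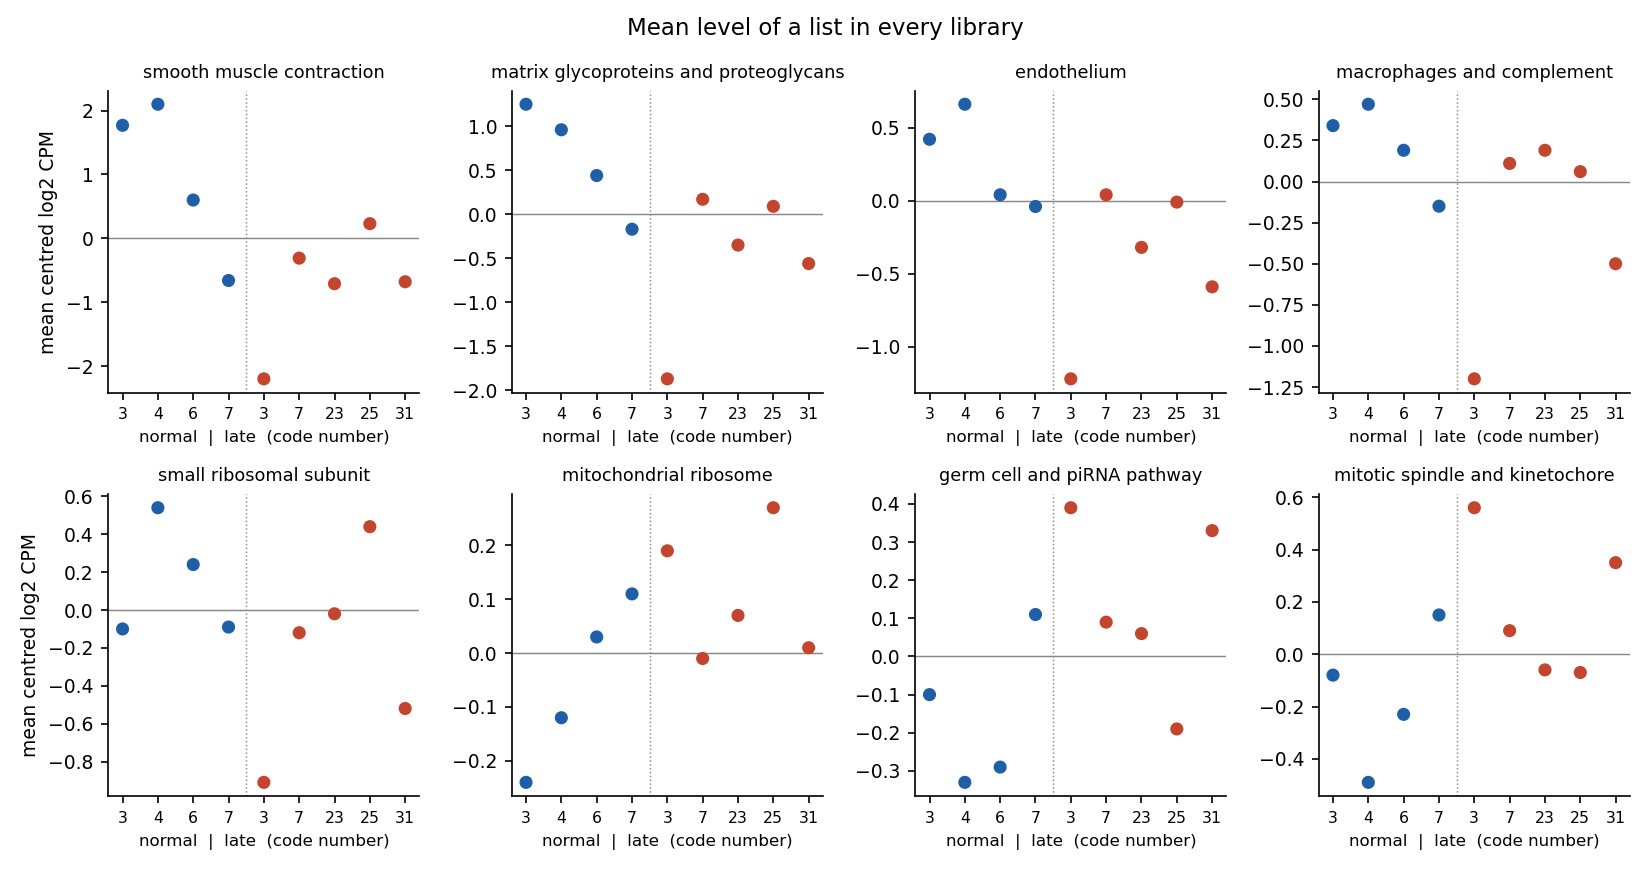
Mean log2 CPM of the tested members of 8 gene lists in each of the 4 normal and 5 late libraries, with code numbers on the x axis. Values are centred over all 13 libraries of the fit, early tumours included. Late 3 is lowest for smooth muscle (-2.20), matrix, endothelium, macrophages and the small ribosomal subunit (-0.91) and highest for germ cells (0.39) and mitosis (0.56).

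Protein-turnover and RNA-processing genes had members on both sides. Of 34 proteasome genes, 3 were higher and 5 lower at an unadjusted p under 0.05 (8.82% and 14.7%, against 7.51% and 10.4% of all genes). When 1 library was left out, each of these counts ran from 1 to 5. PSMA2, a core-ring subunit, was at 259, 208, 268 and 302 TPM in normal and at 356, 340.3, 375, 304 and 346 TPM in late libraries, every late one above every normal one, and voom called it higher. PSMD2, a subunit of the cap, stood lower at 33.7 ± 8.89 and 22.6 ± 3.41 TPM, and voom called it lower. Among 40 splicing factors 5 were lower (12.5%, near the 10.4% of all genes) and none higher at that p. Those lower numbered 2 without normal 4 and 11 without normal 7. The 5 included SF3B3 (-0.73 ± 0.24) and PRPF19 (-0.55 ± 0.18), and voom called both lower. Chaperones gave 6 higher and 6 lower of 39 at that p (15.4% each). These counts ran from 0 to 10 and from 2 to 8 when 1 library was left out.

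Of the immune lists DESeq2 called CXCR4 alone. Macrophage and complement genes gave 6 of 26 lower and 2 higher at an unadjusted p under 0.05 (median -0.33). These were 23.1% and 7.69%, against 10.4% and 7.51% of all genes. The higher ones included LYZ, which rested on late 23 and is described below. Those higher ran from 0 to 3 when 1 library was left out. Those lower numbered 1 without normal 4 or late 31 and 2 without normal 3 or late 3, and the list mean was -1.20 in late 3. C1QA, a chain of the first complement component made by macrophages, was at 14.0, 12.9, 9.58 and 5.48 TPM in normal and at 1.06, 6.41, 4.59, 4.78 and 2.83 TPM in late libraries. Only late 7 exceeded the lowest normal library. CSF1R, the growth-factor receptor of macrophages, averaged 31.3 ± 8.60 and 32.2 ± 8.83 TPM (unadjusted edgeR p = 0.926).

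T-cell and cytotoxic genes gave 4 of 19 lower and none higher at that p (median -0.33). The 4 were 21.1% of the list, against 10.4% of all genes. Those lower numbered 2 without normal 3, normal 4, late 3 or late 7. CD8A, the co-receptor of cytotoxic T cells, was at 1.64, 0.893, 0.862 and 1.09 TPM in normal and at 0.869, 0.654, 0.578, 0.489 and 0.466 TPM in late libraries. In TPM late 3 just passed normal 6, while normalised CPM did not overlap. GNLY, which encodes a lytic granule protein of the NK-lysin family in chicken, averaged 73.5 ± 13.3 and 38.5 ± 19.6 TPM. CTSG, or cathepsin G, a granule protease known from human neutrophils, was in none of the immune lists. It was at 13.1, 29.1, 15.9 and 12.3 TPM in normal and at 1.11, 4.57, 8.05, 6.67 and 4.14 TPM in late libraries, without overlap. Both DESeq2 and voom called it lower (-1.97 ± 0.56). B-cell, interferon and chemokine lists held 0, 2 and 0 members lower at that p, of 15, 25 and 14 tested. The interferon share was 8%, against 10.4% of all genes. The B-cell median of -0.13 was 0.05 without late 3 and without late 31.

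The chicken MHC-Y region holds a second cluster of MHC-like class I genes. A tally of its genes by symbol was added after their values were seen. All 10 tested genes had a log2 fold change below 0, 4 of them at an unadjusted p under 0.05 (median -1.31). Over all 16130 tested genes, 7921 were below 0, and 10.4% were lower at that p. The MHC-Y tally was not repeated with a library left out. MHCY10 was at 3.36, 3.64, 1.78 and 3.13 TPM in normal and at 0.107, 0.830, 1.01, 0.155 and 1.27 TPM in late libraries, without overlap (-2.25 ± 0.63). MHCY11 was at 20.2, 16, 1.53 and 9.61 TPM in normal and at 0.776, 2.20, 1.54, 0.541 and 0.301 TPM in late libraries, where normal 6 lay among the tumours (-3.62 ± 0.96). DESeq2 called both lower and voom neither. The genes of this cluster are similar in sequence and vary between birds, so counts for single members are uncertain. The class I light chain B2M averaged 792 ± 189 and 743 ± 342 TPM.

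Epithelial genes as a list lay near the background, with 4 of 35 higher and 2 lower at an unadjusted p under 0.05 and a median of 0.05. When 1 library was left out, 1 to 7 members were higher and 1 to 4 lower at that p. EPCAM, the adhesion protein of epithelia and carcinomas, was at 631, 487, 717 and 1158 TPM in normal and at 1624, 1085, 1076, 886 and 1293 TPM in late libraries. Normal 7 was above 3 of the 5 late libraries, and the log2 fold change was 0.63 ± 0.27 (0.91 without normal 7). MAL2, which sorts proteins to the apical membrane, was at 9.67, 7.07, 12.0 and 11.9 TPM in normal and at 14.5, 16.8, 16.9, 10.9 and 18.3 TPM in late libraries, with late 25 inside the normal range in TPM, and voom called it higher. The simple-epithelium keratins KRT7 (120.3 ± 48.6 and 91.4 ± 58.4 TPM) and KRT18 (47.5 ± 20.5 and 25.3 ± 15.4 TPM) were no higher in late libraries. Of 19 markers of coelomic and Mullerian carcinoma, 1 was higher at that p (5.26%, under the 7.51% of all genes). It was the cell-cycle gene CCNE1 (0.47 ± 0.21).

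Some genes outside the lists had larger differences that rested on normal 3 and 4. TCF24, a helix-loop-helix transcription factor, was at 357, 438, 43.5 and 6.87 TPM in normal and at 1.92, 15.8, 8.66, 11 and 7.28 TPM in late libraries. KRT23, a keratin, was at 15.9, 14.7, 1.25 and 0.166 TPM in normal and at 0.273, 0.660, 0.493, 0.533 and 0.168 TPM in late libraries. NCS1, a calcium sensor of nerve cells, was at 12.8, 21.9, 2.33 and 1.04 TPM in normal and at 0.907, 1.20, 1.25, 1.72 and 0.755 TPM in late libraries. In these 3 genes normal 6 was between the other normal libraries and the tumours, and normal 7 was among the tumours or, for KRT23, just below them. DESeq2 called all 3 lower and voom called none of them. They were chosen after their values were seen.

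Other lower genes stood apart from the tumours in every normal library. The gene that the table calls RBP was at 8.02, 16.4, 9.98 and 5.86 TPM in normal and at 0.652, 1.12, 1.84, 3.68 and 0.733 TPM in late libraries (-2.55 ± 0.56). ADCYAP1, the neuropeptide PACAP, which is made in follicles around ovulation in mammals, was at 4.94, 6.91, 1.14 and 1.03 TPM in normal and at 0.812, 0.474, 0.579, 0.387 and 0.148 TPM in late libraries (-3.06 ± 0.71). TMEFF2, a membrane protein with follistatin-like domains, was at 49.2, 61.9, 16.9 and 13.4 TPM in normal and at 11.6, 9.6, 11.3, 8.99 and 12.7 TPM in late libraries (-1.80 ± 0.48). None of these 3 genes overlapped between the groups, and DESeq2 called each of them lower. NELL2, a secreted glycoprotein, was at 89.3, 49.5, 62.2 and 17.5 TPM in normal and at 4.12, 14.8, 7.14, 17.5 and 6.15 TPM in late libraries, where normal 7 and late 25 met at the same level.

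Across the 99 genes that DESeq2 called lower, normal 4 held the highest value in 66 and normal 3 in 26. Late 3 held the lowest value in 65 and late 31 in 16. Among the normal libraries, normal 7 was nearest to the late group in 91 of the 99 genes, and late 25 was nearest to the normal group in 74. Of the 27 genes called higher, late 3 held the highest value in 18 and normal 7 was the nearest normal library in 22. Of the 126 genes, 46 had no overlap between the groups, 19 higher and 27 lower. Over all tested genes 1.24% were higher and 1.37% lower without overlap. DESeq2 called the 126 from the same values, so a larger share among them was built in.

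Metabolic genes held a few lower members. ALDOA, an enzyme of glycolysis, was at 54.3, 66.4, 31 and 23.5 TPM in normal and at 11.5, 19.9, 20.6, 22.4 and 19.9 TPM in late libraries (-1.40 ± 0.45), and HK2, which starts glycolysis, averaged 6.40 ± 2.57 and 2.71 ± 1.27 TPM. PDK1, which restrains the use of pyruvate by mitochondria, stood higher at 134 ± 34.8 and 188 ± 36.4 TPM, and voom called it. The whole list of glycolysis and hypoxia gave 2 of 30 higher and 4 lower at an unadjusted p under 0.05 (6.67% and 13.3%, near the 7.51% and 10.4% of all genes). Fat-cell genes gave 5 of 21 lower and 2 higher at that p (23.8% and 9.52%, against 10.4% and 7.51% of all genes). These counts ran from 3 to 6 and from 0 to 3 when 1 library was left out. In direction alone 11 members stood lower and 10 higher, and the median of -0.11 was 0.02 without late 31. The lower ones included the fat hormone ADIPOQ (24.9 ± 16 and 4.56 ± 2.78 TPM) and the lipid-synthesis regulator SREBF1 (3.86 ± 1.75 and 1.82 ± 0.333 TPM). The fat marker FABP4 had a higher mean in late libraries (77.2 TPM) than in normal ones (45.1 TPM), with single libraries from 7.15 to 169 TPM. LRP1, a large receptor that takes up lipoproteins and proteases, was at 6.44, 7.90, 4.61 and 1.84 TPM in normal and at 0.376, 1.67, 1.74, 1.86 and 1.06 TPM in late libraries, and DESeq2 called it lower (-2.16 ± 0.65). Cholesterol-synthesis genes gave 2 of 19 lower (10.5%, near the 10.4% of all genes) and none higher.

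The medians of the signalling lists lay between -0.15 (Wnt) and 0.01 (Hedgehog and Notch), while some members differed by more. In the TGF-beta and BMP list (median -0.12) 9 of 41 were lower and 4 higher at an unadjusted p under 0.05. These were 22% and 9.76%, against 10.4% and 7.51% of all genes. Without normal 3 or normal 4, 3 were lower. FSTL1, a secreted BMP binder of stroma, was at 148, 109, 87.7 and 59.0 TPM in normal and at 31.5, 60.1, 54.2, 49.9 and 53.7 TPM in late libraries, and voom called it lower. NOG, which blocks BMPs, stood higher at 19.9 ± 5.49 and 35.6 ± 11 TPM without a call. In the Hedgehog and Notch list the Hedgehog target GLI1 (1.14 ± 0.590 and 0.286 ± 0.108 TPM) and the transducer SMO (38.6 ± 7.54 and 26.9 ± 2.76 TPM) stood lower. The Notch ligands JAG1 (23.8 ± 6.14 and 37.4 ± 11.9 TPM) and JAG2 (26.9 ± 7.06 and 43.0 ± 15.1 TPM) stood higher, and voom called SMO lower and both ligands higher. Wnt genes gave 5 of 43 lower (11.6%, near the 10.4% of all genes) and none higher, with 2 lower without normal 4. Among the 5 were the receptor FZD2 (-1.32 ± 0.42) and the secreted antagonists DKK3 (-0.71 ± 0.24) and FRZB (-1.11 ± 0.43).

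HOX genes, which set position along the body axis, gave 5 of 28 lower and none higher at that p (median -0.32). The 5 were 17.9% of the list, against 10.4% of all genes. Those lower numbered 1 without normal 4 and 11 without late 25. HOXC9 was at 23.1, 38, 26.0 and 18.3 TPM in normal and at 4.91, 14.4, 12.3, 17.4 and 11.9 TPM in late libraries, and HOXB6 averaged 9.03 ± 3.24 and 3.48 ± 2.09 TPM. IGFBP5, which binds insulin-like growth factors, averaged 47.3 ± 18.0 and 23.8 ± 8.85 TPM, and voom called it lower. Among 24 genes that drive human ovarian cancer, 2 were higher and 2 lower at an unadjusted p under 0.05 (8.33% each, near the shares of all genes). The growth-factor receptor ERBB2 (4.81 ± 1.27 and 3.59 ± 0.674 TPM) and the transcription factor MYC (28.3 ± 3.12 and 28.6 ± 14.4 TPM) did not pass that p. Chromatin genes gave 4 of 35 higher and 5 lower (11.4% and 14.3%, against 7.51% and 10.4% of all genes). Voom called KMT2D, NSD1 (-1.26 ± 0.36) and KDM5B (-0.58 ± 0.17) lower.

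Nerve and neuroendocrine genes gave 4 of 23 lower and 1 higher at an unadjusted p under 0.05, with 17 below 0 (median -0.15). These were 17.4% and 4.35%, against 10.4% and 7.51% of all genes. None was lower at that p without normal 4. Of 40 cilia genes 2 were higher and 2 lower at an unadjusted p under 0.05 (5% each, under the 7.51% and 10.4% of all genes). TPPP3, a microtubule-associated protein, was at 80, 49.3, 27.9 and 7.69 TPM in normal and at 2.09, 14.0, 2.67, 11.3 and 2.47 TPM in late libraries, and AK7, an adenylate kinase of cilia, stood higher at 40.2 ± 10.5 and 63.1 ± 20.9 TPM. STMN2, a nerve-cell gene, was at 22.2 TPM in normal 4 and at most 2.13 TPM in the other 8 libraries, and its log2 fold change of -3.53 was -0.92 without normal 4. Of 16 oviduct secretion genes 8 stood higher and 8 lower. At that p 2 were higher (12.5%, against 7.51% of all genes) and none lower. With 1 library left out these counts ran from 0 to 3 and from 0 to 2. The largest log2 fold change of the list was the 3.93 of LYZ, which is described below.

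The early tumours were fitted with the same normal libraries as controls, so only their levels are set beside the others. TAGLN was at 924, 87.5, 157 and 412 TPM in early libraries 9, 11, 12 and 21, and the smooth muscle list mean was 1.24, -1.11, -0.85 and 0.58. CXCR4 was at 28.3, 85.8, 63.8 and 36.2 TPM, MPC1L at 57.0, 121, 104 and 66.2 TPM, and BUB1B at 32.6, 82.1, 63.5 and 31.7 TPM in the same order. In each of these genes early 11 and 12 lay further toward the late libraries than early 9 and 21 did. For TAGLN early 21 lay between normal 6 (622 TPM) and late 25 (336 TPM).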

How the data were processed

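Messenger RNA of whole ovary or ovarian tumour was read in 13 libraries. The authors deposited a table of estimated counts per gene and a table of TPM. Of the count values 30.1% were not whole, and they were rounded before the tests. FastQC, BWA and GATK 3.3.0 are named, without a role, per the submitters' processing notes; which program counted the reads, on which build and with which strand setting, was not given in the sources used here. Each code has 2 records in the labels, and columns were matched to their group by the code. Library totals ran from 16273731 to 20118629 estimated counts.

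Genes were kept by filterByExpr of edgeR 4.0.16 (minimum count 10), scaled by TMM and tested with edgeR's robust quasi-likelihood test in R 4.3.3, late against normal, with all 13 columns in the fit and Benjamini-Hochberg adjustment at 0.05. The common coefficient of variation was 33.6%. DESeq2 1.42.0 and limma 3.58.1 (voom with quality weights, and limma-trend on log2(TPM + 1)) were alternatives. DESeq2 gave no adjusted p for 639 genes. Other alternatives changed the scaling, the filter, the columns, the robust estimation or a replicate block, or left out 1 library. Non-overlap was counted on normalised CPM and can differ from TPM. List means per library are means over members of log2 CPM (prior count 2), centred on each gene's mean over all 13 libraries, early tumours included. The procedure was tested on simulated data.

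Genes were named by rule: in each list the 4 tested members with the smallest edgeR p and the 2 with the highest mean TPM; among genes with a mean log2 CPM of at least 1, no overlap and a DESeq2 call, the 10 highest and the 10 lowest log2 fold changes; and over all genes the 10 smallest p and the 5 highest mean TPM of each group. All other named genes (among them MYH11, PRKG1, COL16A1, PDGFRA, PECAM1, KDR, ZP2, GDF9, BRCA1, AMH, CYP17A1, NDUFA4, CSF1R, KRT7, MYC and ERBB2) were chosen after their values were seen. A few of the genes named by rule are not reported here. The members and lists were chosen with earlier results of these data known. RefSeq (GRCg7b) gave names and kinds for 25075 of 25079 symbols. Symbols of multi-copy families are uncertain, since the counting of shared reads is not given.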

Additional observations from a re-analysis of the deposited data

Results flagged for a closer look

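Over 139 named genes, 7 list means and the library totals, 294 groups of 4 or 5 libraries were examined for 1 library far from the rest of its group, and 12 were found; chance alone gives about 1 in 20 groups. None of these was followed to a cause.

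Normal 7 stood apart above the other normal libraries for 3 genes. BTG4 was at 419.5 TPM against 238 to 251 TPM in the others, JAG1 was at 33.0 TPM against 20.3 to 21.3 TPM, and COPRS was at 16 TPM against 5.31 to 6.57 TPM. Normal 3 was high for FANCI (9.04 TPM against 5.26 to 5.6 TPM) and for FMOD (10.9 TPM against 4.93 to 5.41 TPM). Normal 4 was high for STMN2, at 22.2 TPM against 0.475 to 2.13 TPM.

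Late 3 was the lowest late library for ALDOA (11.5 TPM against 19.9 to 22.4 TPM) and the highest for MRPL32 (156 TPM against 94.9 to 108 TPM). Late 25 was high for IGFBP5 (39.1 TPM against 17.6 to 23.3 TPM) and NDUFV1 (125 TPM against 79.3 to 91.9 TPM) and low for TDRD12 (4.92 TPM against 12.1 to 13.8 TPM). Late 23 was high for the lncRNA LOC121110796, at 2.31 TPM against 1.05 to 1.34 TPM.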

How the results depend on the processing

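Against 0 genes called by edgeR, DESeq2 called 126, voom 895, DESeq2 without normal 7 2538 and DESeq2 without late 3 13; leaving out 1 library gave 0 to 113 edgeR calls, with 113 without normal 7. The other scalings, filters and columns, limma-trend on TPM and the fit without robust estimation called 0. At an unadjusted p under 0.05, against 2893 genes, voom gave 4941, limma-trend on TPM 1783 (37.6% of them higher, against 41.9%), DESeq2 without normal 7 5055, and leaving out 1 library 1261 (without normal 4) to 4610 (without normal 7), with 1553 without normal 3 and 1848 without late 3. Genes without overlap numbered 421, and 517 to 3496 without 1 library (3496 without normal 7, 1676 without late 25, 703 without late 31, 644 without late 7). A gene without overlap stays so when a library is dropped, so these counts could only stay or rise. On TPM the genes without overlap numbered 430, with 152 higher and 278 lower. The fits that join DESeq2 with a left-out library, and the leave-outs for overlap, were chosen after seeing the data. Apart from the rise in genes without overlap, whose direction was fixed, the cause of these differences was not tested.

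Code numbers 3 and 7 occur in both groups. With these as a replicate block edgeR called 0 genes, with 3279 at an unadjusted p under 0.05. Same-numbered libraries correlated at 0.00207 and -0.136 in their deviations from the group means. Differently numbered libraries ran from -0.45 (normal 7 and late 25) to 0.408 (normal 7 and late 3). With so few same-numbered libraries within that spread, these values cannot decide whether the numbers mark a pairing, and the main fit used none.

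For 139 genes followed by their fold change, none of 2896 alternative values changed sign. Of these genes 129 were called in at least 1 setting, and 128 were called by DESeq2 without normal 7. That fit was chosen after seeing the data and called 2538 of 16360 genes. DESeq2 on all libraries called 50 of the 139, voom 62, edgeR without normal 7 24 and DESeq2 without late 3 8. Many of these genes were named by their values in these data. Over all 345 tested genes named by rule or in the text, 29 had both signs over the settings, and their log2 fold changes were at most 0.22 in size. List medians had the opposite sign in 35 cases over 15 lists, the largest of which had a median of 0.17 in size. Among genes called by DESeq2 the smallest edgeR log2 fold change was 0.52 in size.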

Other observations

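LYZ, which encodes the egg-white and macrophage enzyme lysozyme, was at 129.9 TPM in late 23 and between 0.219 and 1.98 TPM in the other 8 libraries. Its log2 fold change of 3.93 ± 1.57 (unadjusted edgeR p = 0.0256) therefore rested on 1 library. DESeq2 gave it no adjusted p, and voom's adjusted p was 0.76, within a range of 0.146 to 0.76 over the alternatives. The oviduct marker sum ran from 7.08 to 36.8 TPM in normal and from 3.95 to 67.7 TPM in late libraries.

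Small groups of genes outside the protein-coding kind also leaned lower by their medians. Of 31 tested genes annotated as rRNA, 30 had a log2 fold change below 0 (median -0.74). At an unadjusted p under 0.05, 5 of them were lower (16.1%) and none higher. Of 17 transcribed pseudogenes 8 were lower (47.1%) and 1 was higher (5.88%) at that p (median -1.21). Over all genes 10.4% were lower and 7.51% higher at that p. DESeq2 called no gene of either kind, and none was lower without overlap, against 1.37% of all genes. Both kinds hold near-identical copies, so the counts of single members are uncertain.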
